A study of Mus musculus with 10 samples.

Results

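The 42 genes described here are targets and regulators of the sterol regulatory element-binding proteins (SREBPs). They were chosen by name from the 24537 gene symbols of a count table and fall into 5 regulators, a fatty acid arm of 18 genes and a sterol arm of 19 genes. The fatty acid arm joins 13 genes of fatty acid synthesis with 5 genes of glycerolipid assembly, and the sterol arm holds enzymes that build cholesterol from acetyl-CoA together with Aacs and Stard4. All 42 passed the filter on low counts, which kept 13909 genes.

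RNA was sequenced from 10 whole livers of male mice. Every mouse had received AAV8, an adeno-associated virus, with the compact Staphylococcus aureus Cas9 behind TBG, a promoter active in hepatocytes, with a guide RNA behind a U6 promoter. The 3 young controls carried a guide to Rosa26, a locus used as a neutral target, received virus at 7 months and are labelled as 9 months old. The 3 old controls carried the same Rosa26 guide, received virus at 23 months and are labelled as 25 months old, and the 4 old livers labelled Cd44 knockout had the same ages with 1 of 2 guides to Cd44, guide 4 in replicates 1 and 2 and guide 2 in replicates 3 and 4. So all groups carried Cas9 and a guide, with Cas9 behind a hepatocyte promoter, and each whole-liver library also holds RNA of other cells.

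SREBPs are made as precursors held in the endoplasmic reticulum membrane. When sterols are scarce, Scap carries them to the Golgi, where proteases release the part that enters the nucleus, and the Insig proteins hold Scap back when sterols are plentiful. SREBP-1c, from Srebf1, acts mainly on genes of fatty acid and triglyceride synthesis and responds to insulin and to the oxysterol receptor LXR, while SREBP-2, from Srebf2, acts mainly on genes of cholesterol synthesis and uptake. In liver the carbohydrate-sensing factor ChREBP, from Mlxipl, shares many of the lipogenic targets. Messenger RNA levels do not measure the cleavage of the precursors.

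Total counts ran from 15821198 to 21710228 per liver. Cd44, the targeted gene, was read first. It had 16.6, 11.1 and 10.1 CPM (counts scaled to each library's effective size and given per 1000000) in young livers, 14.2, 29.99 and 25.9 CPM in old controls, and 18.9, 29.01, 17.6 and 13.1 CPM in replicates 1 to 4 labelled knockout, so the groups overlapped. Its log2 fold change between livers labelled knockout and old controls was -0.25 (SE 0.30, adjusted p 0.896 by edgeR). Whole-liver RNA includes cells other than the hepatocytes that Cas9 was aimed at, so these values cannot tell whether hepatocytes were edited. The directions below rest on the labels. Hepatocyte markers (8 genes) summed to 104460 to 132634 CPM in young livers, 86839.5 to 113762 CPM in old controls and 92545.8 to 97456.2 CPM in livers labelled knockout, so the defining genes of liver were abundant in every library. Old control replicate 3 stood apart from the other old livers in many members. Its library name lies outside the run of the others, and whether it was prepared apart is not stated. Values without it are given for members it moved most. The factors that correct for library composition lay between 0.823 and 0.897 in young livers and between 0.966 and 1.12 in the 7 old livers. The labels do not state that the livers came from separate mice, so p-values measure the spread between these samples, which may be technical.

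**Figure D1:**
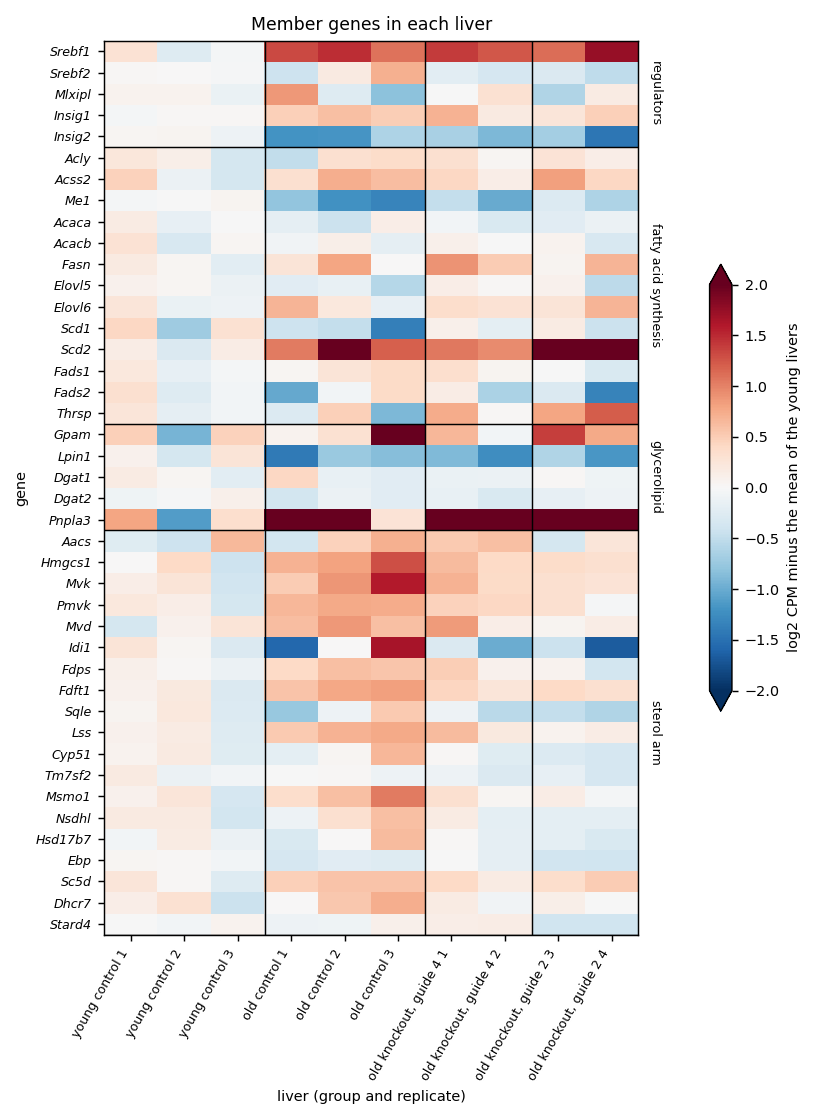
Level of each of the 42 members in each of the 10 livers, as log2 CPM minus the mean of the 3 young livers (colour scale ending at -2 and 2). Srebf1, Scd2 and most sterol genes are redder in old controls, Insig2, Me1 and Lpin1 are bluer in all 7 old livers, and old control replicate 3 has the deepest red in much of the sterol block.

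With age, 15 of the 42 members (35.7%) had an adjusted p below 0.05 by the quasi-likelihood test of edgeR. Of these, 12 were higher and 3 lower in old controls than in young controls. Over all genes tested 22.8% passed, 14.1% higher and 8.66% lower. The calls were 3 of 5 regulators, 4 of 18 genes of the fatty acid arm and 8 of 19 genes of the sterol arm. In whole liver a smaller number of cells of a type and less RNA per cell cannot be told apart.

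Among the regulators, Srebf1 RNA rose with age, Insig1 rose, Insig2 fell, and Srebf2 and Mlxipl did not pass. Srebf1 (chr11:60199084-60224186 on GRCm38) had 121, 82.6 and 96.4 CPM in young livers and 248, 275 and 209.7 CPM in old controls. Replicates 1 to 4 labelled knockout had 261, 233, 215 and 332 CPM. Every old liver lay above every young liver. The rise from 100.1 ± 19.6 to 244 ± 32.9 CPM (SD, n = 3 each) was 2.44-fold, a log2 fold change of 1.29 (SE 0.20, adjusted p 0.00762 by edgeR). The counts are per gene and do not separate SREBP-1a from SREBP-1c.

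The Insig pair moved in opposite directions. Insig1, whose own promoter is an SREBP target and whose protein retains Scap, had 274, 285 and 285 CPM in young livers and 392, 429 and 394 CPM in old controls, with no overlap. Its log2 fold change was 0.53 (SE 0.15, adjusted p 0.0307 by edgeR). Insig2, which retains Scap as well and in liver has a transcript that insulin represses, had 297, 300.4 and 271 CPM in young livers and 126, 127 and 188 CPM in old controls. It fell by 0.98 on the log2 scale (SE 0.22, adjusted p 0.0141 by edgeR), again with no overlap. Livers labelled knockout had 455, 320.4, 332 and 389.7 CPM of Insig1 and 185, 156, 180.4 and 106 CPM of Insig2 in replicates 1 to 4, on the side of the old controls for both genes.

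Srebf2 was nearly constant in young livers, at 68.2, 67.7 and 66.5 CPM, and spread out in old controls, at 50.4, 76.4 and 111 CPM. Old control replicate 1 lay below the young livers and replicates 2 and 3 above them. The log2 fold change with age was 0.23 (SE 0.22, adjusted p 0.47 by edgeR), and -0.09 without replicate 3. Mlxipl was spread in the opposite order, with 1054, 484 and 326 CPM in old controls against 523 to 605 CPM in young livers, and a log2 fold change of 0.11 (adjusted p 0.854 by edgeR), or 0.41 without replicate 3.

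**Figure D2:**
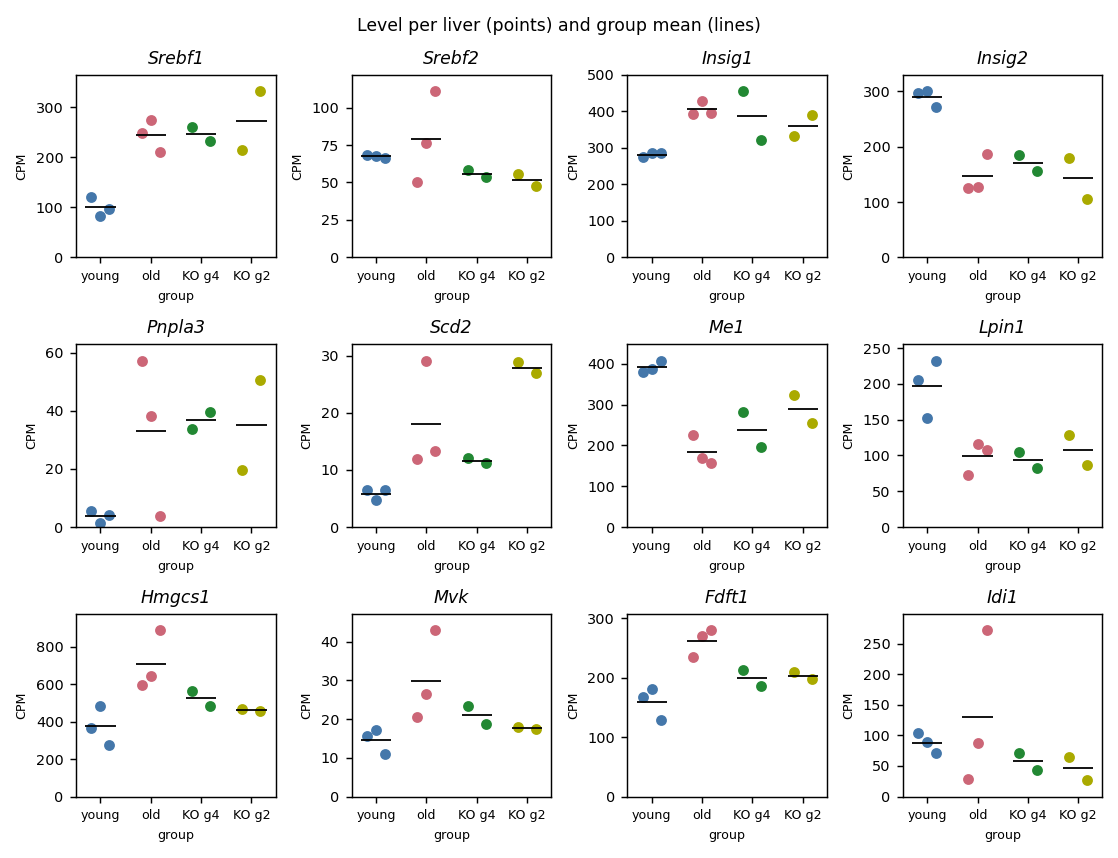
CPM per liver (points) and group mean (lines) of 12 members in young controls, old controls and livers labelled knockout by guide (KO g4, KO g2), each panel with its own axis from 0. Srebf1 is above and Insig2 below the young range in every old liver, while Srebf2, Pnpla3 and Idi1 differ widely among the 3 old controls.

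In fatty acid synthesis, 2 of 13 genes passed with age, Scd2 higher and Me1 lower, against 22.8% of all genes, and the median log2 fold change of the 13 was -0.06 beside 0.04 over all genes tested. Me1, malic enzyme, supplies NADPH for fatty acid synthesis. It had 379, 388 and 407 CPM in young livers and 226, 168 and 157 CPM in old controls, with 281, 196, 324 and 255 CPM in replicates 1 to 4 labelled knockout. All 7 old livers lay below all young livers. It fell by 1.09 on the log2 scale (SE 0.20, adjusted p 0.00877 by edgeR).

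Scd2 and Scd1 encode stearoyl-CoA desaturases, which make monounsaturated fatty acids, and lie near each other on mouse chromosome 19 (chr19:44293676-44306864 and chr19:44394450-44407709 on GRCm38). Scd2, the form of brain and other tissues outside liver, had 6.43, 4.75 and 6.4 CPM in young livers and 11.9, 29.1 and 13.3 CPM in old controls. The groups did not overlap, and the log2 fold change was 1.63 (SE 0.44, adjusted p 0.0259 by edgeR). Scd1, the main liver form, had 14894, 6866 and 13831 CPM in young livers and 8452, 8077 and 4368 CPM in old controls. Young replicate 2 lay among the old controls, and the log2 fold change of -0.77 (SE 0.32) did not pass (adjusted p 0.105 by edgeR). How reads were divided between these paralogs is not stated in the sources used here.

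The core enzymes of the pathway did not pass with age. Fasn, fatty acid synthase, had 737, 666 and 563 CPM in young livers, 782, 1131 and 653 CPM in old controls and 1210.4, 923, 675 and 1046 CPM in replicates 1 to 4 labelled knockout. The age difference on the log2 scale was 0.38 (SE 0.24, adjusted p 0.269 by edgeR), and the groups overlapped. Acly, which makes cytosolic acetyl-CoA from citrate, had a log2 fold change of 0.09, and the acetyl-CoA carboxylases Acaca and Acacb had -0.15 and -0.06. Acss2, which makes acetyl-CoA from acetate, had 0.52 (adjusted p 0.114 by edgeR), and passed at 0.78 (adjusted p 0.0467 by edgeR) without young replicate 1. The elongases Elovl5 and Elovl6 had -0.31 and 0.28, the desaturases Fads1 and Fads2 had 0.22 and -0.14, and Thrsp, a lipogenic cofactor also known as Spot 14, had -0.14. The lowest adjusted p among these by edgeR was 0.248, and Thrsp had 0.13 without old control replicate 3.

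Among the 5 glycerolipid genes, Pnpla3 rose and Lpin1 fell with age. Pnpla3, a lipid droplet protein that is a direct SREBP-1c target, had 5.45, 1.45 and 3.99 CPM in young livers. Old controls had 57.2, 38.2 and 3.82 CPM, so replicate 3 stayed within the young range while the others lay far above it. Livers labelled knockout had 33.9, 39.6, 19.8 and 50.7 CPM in replicates 1 to 4, all above the young livers. The log2 fold change with age was 3.18 (SE 0.79, adjusted p 0.0196 by edgeR).

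Lpin1, a phosphatidate phosphatase that also acts in the nucleus, had 205, 152 and 232 CPM in young livers and 72.4, 116 and 108 CPM in old controls. It fell by 0.99 on the log2 scale (SE 0.23, adjusted p 0.0152 by edgeR), and livers labelled knockout, at 105, 82.2, 128 and 86.8 CPM in replicates 1 to 4, also lay below every young liver. Gpam, which starts glycerolipid synthesis, had 32.6, 12.2 and 32.1 CPM in young livers and 24.6, 29 and 115 CPM in old controls, with replicate 3 far above the rest. Its log2 fold change of 1.13 (SE 0.58) did not pass (adjusted p 0.175 by edgeR), and without replicate 3 it was 0.06. Dgat1 and Dgat2, which add the last fatty acid of triglycerides, had 0.04 and -0.24.

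In the sterol arm, 8 of 19 genes rose with age and none fell, against 14.1% of all genes that passed in the higher direction. The 8 were Hmgcs1, Mvk, Pmvk, Mvd, Fdft1, Lss, Msmo1 and Sc5d, and 15 of the 19 had a log2 fold change above 0, against 52.4% of all genes. In 9 of them, the 8 and Fdps, every old control lay above every young liver, which 19.7% of all genes did. The median over the arm was 0.52 on the log2 scale, or 1.43-fold, beside -0.01 over the fatty acid arm and 0.04 over all genes. Without old control replicate 3 the sterol median was 0.25, with 12 of 19 above 0. In that fit 7 of the 19 passed, where 37.7% of all genes passed.

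The early steps that build mevalonate and activate it rose. Hmgcs1, which makes HMG-CoA, had 368, 482 and 274 CPM in young livers and 594, 641 and 888 CPM in old controls. The groups did not overlap, and the log2 fold change was 0.92 (SE 0.22, adjusted p 0.0167 by edgeR). Mvk, mevalonate kinase, had 15.7, 17.1 and 11 CPM in young livers and 20.4, 26.4 and 43.0 CPM in old controls, with replicate 3 highest, and a log2 fold change of 1.04 (SE 0.26, adjusted p 0.0201 by edgeR). Without old control replicate 3 the value was 0.68.

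Pmvk, phosphomevalonate kinase, was even among the old controls, with 72.6, 76.9 and 76.2 CPM against 52.8, 50.2 and 35.8 CPM in young livers. It rose by 0.70 on the log2 scale (SE 0.17, adjusted p 0.0166 by edgeR). Mvd, which completes isopentenyl diphosphate, had 25.9, 35.3 and 39.6 CPM in young livers and 50.5, 60.1 and 50.4 CPM in old controls, a log2 fold change of 0.68 (SE 0.22, adjusted p 0.0495 by edgeR). For both genes every old control lay above every young liver.

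Idi1, which isomerizes isopentenyl diphosphate, did not follow its neighbours in the pathway. It had 104, 89.0 and 71.1 CPM in young livers and 29.3, 87.5 and 272 CPM in old controls, so replicate 1 lay below and replicate 3 above all young livers. The age difference on the log2 scale was 0.56 (SE 0.60, adjusted p 0.524 by edgeR), and -0.59 without replicate 3. Fdps, which makes farnesyl diphosphate, had 328, 311 and 283 CPM in young livers and 403, 466 and 451 CPM in old controls with no overlap, and 0.52 on the log2 scale (SE 0.19, adjusted p 0.0705 by edgeR).

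Fdft1, squalene synthase, is the first step committed to sterols. It had 168, 182 and 129 CPM in young livers and 235, 271 and 279.9 CPM in old controls, and rose by 0.72 on the log2 scale (SE 0.15, adjusted p 0.0113 by edgeR). Sqle, squalene epoxidase, the next enzyme, had 157, 176 and 126 CPM in young livers and 89.9, 141 and 216 CPM in old controls. Those groups overlapped, with a log2 fold change of -0.04 (SE 0.27, adjusted p 0.936 by edgeR), or -0.41 without old control replicate 3. Lss, which closes the rings to lanosterol, had 73.1, 77.1 and 57.8 CPM in young livers and 99.2, 111 and 117 CPM in old controls. Its groups did not overlap, and it rose by 0.65 (SE 0.17, adjusted p 0.0236 by edgeR).

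Of the enzymes that turn lanosterol into cholesterol, Msmo1 and Sc5d rose. Msmo1, which removes methyl groups at carbon 4, had 177, 196 and 132 CPM in young livers and 211, 253 and 342 CPM in old controls, with a log2 fold change of 0.68 (SE 0.20, adjusted p 0.0354 by edgeR). Sc5d, a desaturase, had 460.4, 394 and 324 CPM in young livers and 543, 578 and 577 CPM in old controls, with 0.53 (SE 0.15, adjusted p 0.0328 by edgeR). Neither gene overlapped between the groups. Dhcr7, the last step of one branch, had 0.42 (adjusted p 0.172 by edgeR), and Cyp51, Nsdhl and Hsd17b7 had 0.21, 0.28 and 0.16. Tm7sf2 and Ebp had -0.03 and -0.27. Aacs, which activates acetoacetate for lipid synthesis, had 0.26, and Stard4, a cholesterol carrier, had -0.03.

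**Figure D3:**
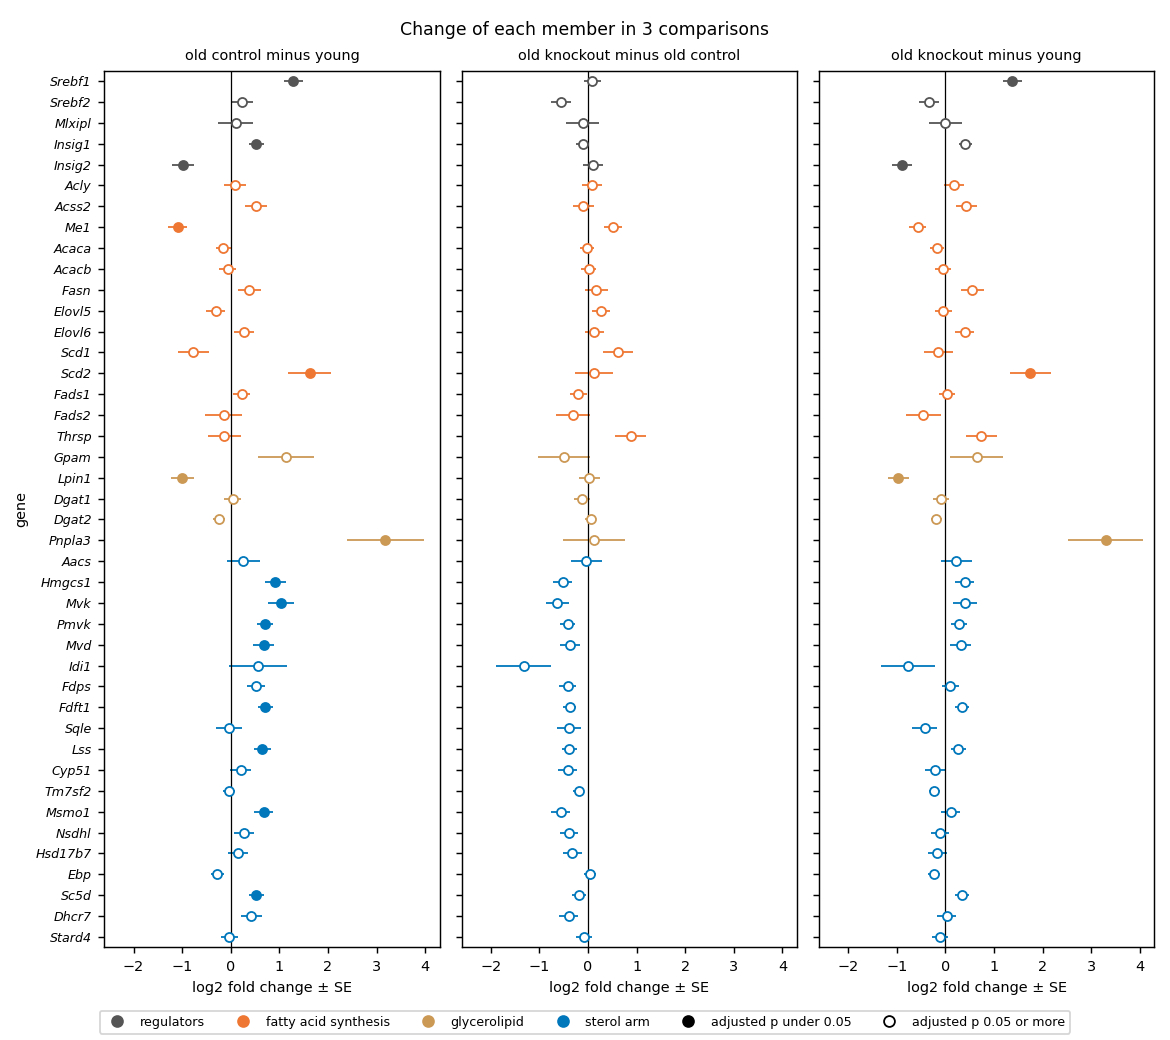
Log2 fold change ± SE of each member in 3 comparisons, coloured by list and filled where the edgeR adjusted p was under 0.05. With age 8 sterol genes are filled to the right of 0; in the middle panel no gene is filled and 18 of 19 sterol genes lie left of 0.

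Markers of several other cell types also differed between the groups. Endothelial markers (8 genes) summed to 165 to 229 CPM in young livers, 336 to 372 CPM in old controls and 228 to 282 CPM in livers labelled knockout, and 6 of the 8 passed as higher with age. Macrophage markers (8 genes, 6 higher with age) summed to 185 to 271, 343 to 1197 and 285 to 558 CPM. Stellate cell markers (8 genes, 5 higher) summed to 232 to 346, 415 to 644 and 366 to 434 CPM. T and B cell markers (8 genes, 6 higher) summed to 5.45 to 9.30, 9.30 to 69.4 and 23.5 to 36.2 CPM, and 2 of the 8 hepatocyte markers passed as lower with age. Of the myeloid and erythroid markers 5 of 7 tested passed as higher with age, with a median of 3.55 on the log2 scale. Old control replicate 2 lay far above the rest, with 31.6 CPM of Mpo, 63.0 CPM of Ngp and 50.6 CPM of Pf4. Old control replicates 1 and 3 had 0.25 and 0.67, 0.54 and 0.57, and 2.16 and 1.05 CPM of these, also above every young liver. In livers labelled knockout against old controls, replicate 2 among them, the median of the tested markers was -2.43. There 5 of the 7 were lower at an unadjusted p under 0.05. Bile duct markers (5 tested) had no gene that passed by edgeR, and 0 at an unadjusted p under 0.05. No endothelial, macrophage or stellate cell marker was at 0 throughout a group, and the part of these cell types in the sterol values was not tested. Adipocyte markers summed to at most 50.1 CPM in any liver, the value of young replicate 3. That liver had 1.84 CPM of Adipoq, 0.57 CPM of Plin1 and 0.32 CPM of Lep. No other liver had more than 0.07 CPM of any of them, and they were at 0 in all livers labelled knockout. The part of fat cells in the member values of young replicate 3 was not tested.

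The promoters of sterol genes that rose together were read for the letters that SREBPs and their partner NF-Y recognise. RefSeq windows on GRCm38.p6, from 250 bases before to 50 bases after a gene's start, were held for 33 of the 42 members, and a gene with several starts counted once. The NF-Y letters CCAAT, on either strand, were in 14 of 15 sterol genes (93.3%), 9 of 13 fatty acid arm genes (69.2%), 5 of 5 regulators and 42.9% of 10682 tested genes with a window. The sterol regulatory element letters TCACNCCAC, on either strand, were in Hmgcs1 and Mlxipl among the members and in 1.49% of those tested genes. The shorter CACNCCAC, which overlaps the former, was in 4 of 33 members, the same genes with Insig1 and Gpam, against 7.73%. The E-box CACGTG was in 6 of 33 members against 11.5%, and GGGCGG was in 13 of 15 sterol genes and 6 of 13 fatty acid arm genes against 65.5%. These matches describe letters in a window and are no evidence of binding.

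Stretches of 150 bases are shown 5′ to 3′ on the gene's strand for 5 sterol genes that rose with age and, from the fatty acid arm, for Acly. The NF-Y letters are not particular to genes that rose. Fasn, Thrsp and Elovl5 of the fatty acid arm hold them upstream of the start. So do the sterol genes Nsdhl, Hsd17b7 and Idi1, which did not pass with age. The Acly stretch holds neither the NF-Y nor the sterol regulatory element letters, but its window has CCAAT at 38 bases after the start, outside the stretch shown, so that gene is among the 9 of 13 counted above. It also holds GGGCGG or its reverse, which is not marked. Capitals mark CCAAT or its reverse ATTGG and, in Hmgcs1, also TCACCCCAC. All come from RefSeq windows on GRCm38.p6 and lie upstream of the annotated exons.
Hmgcs1, chr13:119690201-119690350, plus strand: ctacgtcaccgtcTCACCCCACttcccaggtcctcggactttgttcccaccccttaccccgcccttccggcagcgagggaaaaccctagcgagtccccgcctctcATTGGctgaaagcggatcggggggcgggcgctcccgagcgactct
Mvk, chr5:114444114-114444263, plus strand: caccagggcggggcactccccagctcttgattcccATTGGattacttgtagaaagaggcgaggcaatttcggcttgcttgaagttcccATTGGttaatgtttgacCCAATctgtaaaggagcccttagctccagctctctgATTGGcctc
Mvd, chr8:122443423-122443572, minus strand: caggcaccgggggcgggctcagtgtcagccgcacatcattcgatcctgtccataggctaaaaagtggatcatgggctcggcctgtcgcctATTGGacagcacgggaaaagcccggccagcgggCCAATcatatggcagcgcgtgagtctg
Lss, chr10:76531415-76531564, plus strand: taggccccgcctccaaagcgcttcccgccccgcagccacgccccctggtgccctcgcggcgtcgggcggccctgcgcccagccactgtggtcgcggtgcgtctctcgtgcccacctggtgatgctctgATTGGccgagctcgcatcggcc
Sc5d, chr9:42264301-42264450, minus strand: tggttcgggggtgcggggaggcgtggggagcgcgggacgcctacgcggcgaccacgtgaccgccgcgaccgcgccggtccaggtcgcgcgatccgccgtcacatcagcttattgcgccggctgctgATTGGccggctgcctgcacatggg
Acly, chr11:100528001-100528150, minus strand: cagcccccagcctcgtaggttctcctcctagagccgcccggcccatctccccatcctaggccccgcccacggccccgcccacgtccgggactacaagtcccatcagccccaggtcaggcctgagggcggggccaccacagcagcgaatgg
The Mvk stretch holds 4 copies of the NF-Y letters and the Mvd stretch 2, while those of Hmgcs1, Lss and Sc5d hold 1 each.

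The second comparison set the 4 old livers labelled Cd44 knockout against the 3 old controls. The same old controls enter the age comparison with the opposite sign, so the comparisons are not independent. A high value in old controls raises the age difference and lowers this one. By edgeR's quasi-likelihood test 0 of 42 members and 0 (0%) of all genes passed, the lowest adjusted p of a member being 0.744, and DESeq2 called no member. At an unadjusted p under 0.05 there were 11 members, 2 higher and 9 lower, where 6.59% of all genes had such a p, 2.57% higher and 4.02% lower. The arms lay on different sides of 0. In the sterol arm 18 of 19 genes had a log2 fold change below 0, against 54.4% of all genes, with a median of -0.39 beside -0.02 over all genes, whereas the fatty acid arm had 12 of 18 above 0, against 45.6% of all genes, and a median of 0.07.

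The 8 sterol genes with an unadjusted p under 0.05 were Hmgcs1, Mvk, Pmvk, Idi1, Fdps, Fdft1, Lss and Msmo1, all lower in livers labelled knockout. All but Idi1 and Fdps had passed as higher with age, where the same old controls were used. Hmgcs1 had 565, 483, 469 and 455 CPM in replicates 1 to 4 labelled knockout, below the 594, 641 and 888 CPM of the old controls. Its log2 fold change was -0.52 (SE 0.20, unadjusted p 0.0248 and adjusted p 0.744 by edgeR). Msmo1 had 208, 171, 185 and 162 CPM in replicates 1 to 4 labelled knockout, also below all old controls, and -0.57 (SE 0.19, unadjusted p 0.0108 and adjusted p 0.744 by edgeR). Together with Pmvk, Fdft1 and Tm7sf2, these were the 5 sterol genes whose groups did not overlap, against 3.26% of all genes in the lower direction.

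Idi1 had the lowest log2 fold change of the arm, -1.33 (SE 0.56, adjusted p 0.748 by edgeR), with 71.3, 43.9, 64.5 and 27.3 CPM in replicates 1 to 4 labelled knockout. Old control replicate 1, at 29.3 CPM, lay among them, and without old control replicate 3 the value was -0.17. Fdps had 432, 327, 321 and 239 CPM, so replicate 1 labelled knockout overlapped the old controls and replicate 4 lay below every young liver, and the log2 fold change was -0.42 (SE 0.18, adjusted p 0.748 by edgeR). Mvk had 23.3, 18.7, 17.9 and 17.3 CPM and a log2 fold change of -0.63 (SE 0.24, adjusted p 0.744 by edgeR).

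Pmvk had 62.5, 60.6, 57 and 44.7 CPM in replicates 1 to 4 labelled knockout, below all old controls, and Fdft1 had 213, 186, 209 and 198 CPM, also below them. Lss had 107, 78.6, 72.2 and 76.1 CPM, so replicate 1 lay among the old controls and the others below. The log2 fold changes of the 3 genes were -0.42 (SE 0.15), -0.38 (SE 0.14) and -0.38 (SE 0.16), each with an adjusted p of 0.744 by edgeR. Sqle, which did not reach an unadjusted p of 0.05, had 141, 105, 109 and 99.4 CPM and a log2 fold change of -0.39, while Sc5d and Mvd had 438 to 550.3 CPM and 34.4 to 59.9 CPM. Without old control replicate 3 the sterol median was -0.22, with 17 of 19 below 0 and 2 at an unadjusted p under 0.05. Hmgcs1 then had -0.32, Msmo1 -0.36, Mvk -0.28 and Sqle -0.02.

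Srebf2 values were also lower in livers labelled knockout, without passing. The gene had 58.2, 53.5, 55.4 and 47.4 CPM in replicates 1 to 4, below all young livers and below old control replicates 2 and 3, with a log2 fold change of -0.56 (SE 0.21, unadjusted p 0.0196 and adjusted p 0.744 by edgeR). Without old control replicate 3 it was -0.24. Srebf1, Insig1 and Insig2 had 0.09, -0.11 and 0.09. Endothelial markers lay below the old controls in all 4 livers labelled knockout, as their sums above show, and their part in the sterol values was not tested.

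The 2 members higher at an unadjusted p under 0.05 belong to the fatty acid arm. Thrsp had 191, 322 and 125 CPM in old controls against 388, 236, 400.4 and 535 CPM in replicates 1 to 4 labelled knockout. Its difference on the log2 scale was 0.87 (SE 0.32, unadjusted p 0.0198 and adjusted p 0.744 by edgeR). Me1 had 0.52 (SE 0.18, unadjusted p 0.016 and adjusted p 0.744 by edgeR), and its old control replicate 1, at 226 CPM, lay above replicate 2 labelled knockout, at 196 CPM. Scd1, at 11988, 9810.1, 12629 and 8329.8 CPM in replicates 1 to 4 labelled knockout, had 0.62 (SE 0.31, adjusted p 0.755 by edgeR) and, without old control replicate 3, 0.37. Each of these 3 genes overlapped between the groups, and Fasn had 0.17.

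Set against the same young livers, which both comparisons share, the livers labelled knockout had 5 of 42 members past an adjusted p under 0.05 by edgeR, 3 higher and 2 lower, where 11.6% of all genes passed, 6.64% higher and 4.97% lower. Srebf1 rose by 1.38 (SE 0.19, adjusted p 0.00714 by edgeR), Scd2 by 1.75 (SE 0.42, adjusted p 0.0307 by edgeR) and Pnpla3 by 3.30 (SE 0.77, adjusted p 0.0281 by edgeR) on the log2 scale. Insig2 fell by 0.89 (SE 0.20, adjusted p 0.0268 by edgeR) and Lpin1 fell by 0.97 (SE 0.21, adjusted p 0.0236 by edgeR). No sterol gene passed by edgeR, 2 had an unadjusted p under 0.05 (Fdft1 and Sc5d, both higher, as were 18% of all genes), and DESeq2 called none of the arm. The sterol median was 0.10 beside 0.52 for old controls against the same young livers, and the fatty acid medians were -0.01 in both comparisons.

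Hmgcs1 shows the 3 groups in order, with means of 375 ± 104 CPM in young livers (SD, n = 3), 493 ± 49.5 CPM in livers labelled knockout (SD, n = 4) and 708 ± 158 CPM in old controls (SD, n = 3). Fdft1 had 159.5 ± 27.3, 201 ± 12.1 and 262 ± 23.9 CPM in that order. Other sterol genes did not keep that order. Sqle, Cyp51, Idi1, Nsdhl, Hsd17b7, Tm7sf2 and Stard4 had their lowest mean in the livers labelled knockout. Sqle had 114 ± 18.9 CPM there, against 153 ± 25.3 CPM in young livers and 149 ± 63.7 CPM in old controls. Srebf1, by contrast, had 260.1 ± 51.5 CPM in livers labelled knockout, next to 244 ± 32.9 CPM in old controls.

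The guides were compared over 2 livers each. Between guides 0 of 42 members passed by edgeR, where 0.0216% of all genes did, and 1 member was higher and 1 lower at an unadjusted p under 0.05, against 2.19% and 2.15% of all genes. Stard4 had 101 and 102 CPM in the guide 4 livers and 69.8 CPM in both guide 2 livers, against 85.9 to 98.6 CPM in old controls. Its log2 fold change of guide 4 against guide 2 was 0.54 (SE 0.14, unadjusted p 0.00257 and adjusted p 0.464 by edgeR), and it was the 1 member that DESeq2 called, where DESeq2 called 0.502% of all genes. Scd2 had 12 and 11.2 CPM in the guide 4 livers, 28.8 and 27 CPM in the guide 2 livers, and a log2 fold change of -1.27 (SE 0.37, unadjusted p 0.00631 and adjusted p 0.66 by edgeR).

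Across the sterol arm 16 of 19 genes were above 0 for guide 4 against guide 2, where 50.5% of all genes were, with a median of 0.24, and 11 did not overlap in that direction, where 18.1% of all genes did so. Without replicate 1 labelled knockout, 13 of 19 were above 0 and the median was 0.06. Set against the shared old controls, guide 2 had 19 of 19 sterol genes below 0, where 54.9% of all genes were, and a median of -0.51. It had 8 at an unadjusted p under 0.05 (Hmgcs1, Mvk, Pmvk, Mvd, Fdps, Lss, Msmo1 and Stard4). Guide 4 had 16 of 19 below 0, where 55.4% of all genes were, a median of -0.28 and 1 at an unadjusted p under 0.05, Fdft1. No member passed after adjustment for either guide, where 0.0216% of all genes passed for guide 2 and 0% for guide 4. The guide 4 median was -0.47 without replicate 1 labelled knockout, -0.14 without replicate 2, -0.43 without old control replicate 1 and -0.18 without old control replicate 3, and the guide 2 median was -0.31 without old control replicate 3. DESeq2 called no member for either. Over all genes 4.13% and 2.08% were lower at an unadjusted p under 0.05 with guides 2 and 4. For Thrsp the guides had the same direction, with 1.14 for guide 2 (unadjusted p 0.0089 and adjusted p 0.542 by edgeR) and 0.55 for guide 4 (adjusted p 0.98 by edgeR), where 2.91% of all genes were higher at an unadjusted p under 0.05 with guide 2.

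An arm level per liver, the mean over the arm's genes of log2 CPM minus the young mean, puts the arms side by side. For the sterol arm old controls had 0.06, 0.40 and 0.69, young livers 0.06, 0.11 and -0.17, and replicates 1 to 4 labelled knockout 0.29, 0.01, -0.03 and -0.14. Old control replicate 1 thus lay within the young range although 9 of its 19 sterol genes were above the young livers. For the fatty acid arm old controls had 0.09, 0.32 and -0.01, and replicates 1 to 4 labelled knockout had 0.39, 0.10, 0.40 and 0.28. The genes of fatty acid synthesis alone, without the glycerolipid genes, had lower levels. These were -0.09, 0.22 and -0.11 in old controls and 0.31, -0.01, 0.31 and 0.13 in replicates 1 to 4 labelled knockout. Replicate 2 labelled knockout then had its sterol level above its fatty acid level.

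The difference between the arms, sterol minus fatty acid, was -0.04, 0.08 and 0.70 in old controls and -0.10, -0.09, -0.44 and -0.42 in replicates 1 to 4 labelled knockout. These groups did not overlap, although old control replicate 1 and the guide 4 livers lay close together. Young livers had -0.18, 0.36 and -0.18, so replicate 2 lay among the old controls. The members were chosen with results known, so these levels are a description and were not tested.

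**Figure D4:**
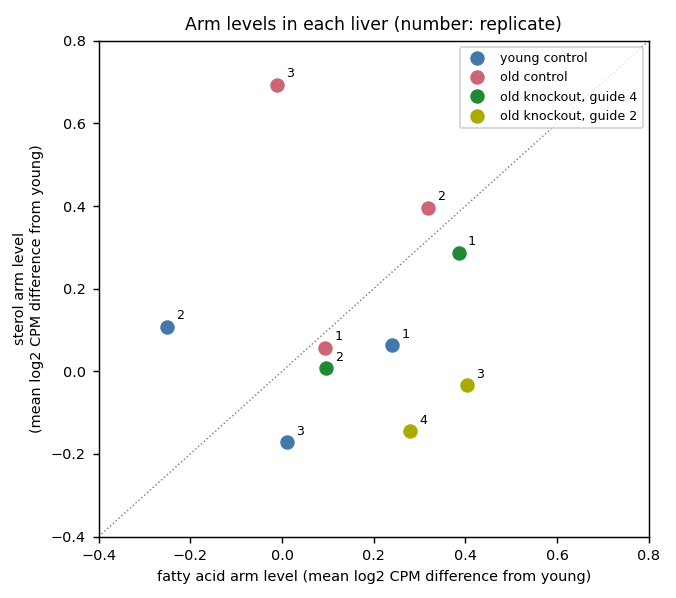
Sterol arm level against fatty acid arm level in each of the 10 livers, both as the mean log2 CPM difference from young, with the replicate number beside each point and a dotted line where the levels are equal. Old control replicate 3 lies highest at a sterol level of 0.69. All 4 livers labelled knockout lie below the line, as do young replicates 1 and 3 and old control replicate 1.

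Old control replicate 3 had 12 of the 19 sterol genes at their highest among the 7 old livers. Of the 18 fatty acid arm genes it had 8 at their lowest and 5 at their highest. Over all genes 23.8% had their highest and 27.8% their lowest value in that liver. It was highest for Srebf2, at 111 CPM, and lowest for Mlxipl, Scd1, Thrsp and Pnpla3, at 326, 4368, 125 and 3.82 CPM. At the other end, replicate 4 labelled knockout had 9 sterol genes at their lowest, where 11.1% of all genes were lowest in it. The hepatocyte markers of old control replicate 3 summed to 113762 CPM, the highest of the old livers, and its endothelial markers to 336 CPM, the lowest of the old controls.

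Some genes of the same pathways that are not members also passed with age. Of 16 other genes of sterol synthesis, uptake and transport, 7 passed with age, 6 higher and 1 lower, with a median of 0.51, where 22.8% of all genes passed, 14.1% higher and 8.66% lower. Those higher included Npc1 and Npc2, which move cholesterol out of lysosomes, Soat1, which esterifies it, Abcg1, which exports it, and Mylip, which degrades the LDL receptor, at 0.48, 0.74, 1.16, 1.42 and 1.23. Abca1, the exporter that forms HDL, fell by 0.93 (adjusted p 0.00925 by edgeR).

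Of 15 other genes of fatty acid and glycerolipid synthesis, 3 (20%) passed with age, near the 22.8% of all genes. All 3 fell: Elovl3 by 1.35, Hsd17b12 by 0.63 and Acsl1 by 0.82 on the log2 scale. Elovl3 and Hsd17b12 act in fatty acid elongation and Acsl1 activates fatty acids. Over 11 genes that control SREBPs the median was -0.08. Among 10 genes of glucose use and insulin signalling, Tkfc, an enzyme of fructose metabolism, fell by 0.88 on the log2 scale (adjusted p 0.00924 by edgeR), with 543, 681 and 521 CPM in young livers and 317, 327 and 307 CPM in old controls.

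Between livers labelled knockout and old controls none of these 52 genes passed by edgeR. At an unadjusted p under 0.05 the glucose and insulin list had Pklr, Khk, Tkfc and Irs1 among the genes higher and Irs2 lower, the sterol list had Abcg1 among the genes lower, and the SREBP control list had Scap lower. Pklr, liver pyruvate kinase and a known ChREBP target, had 393, 473, 337 and 399 CPM in replicates 1 to 4 labelled knockout and 232, 299.6 and 223 CPM in old controls, a log2 fold change of 0.67 (SE 0.16, unadjusted p 0.00129 and adjusted p 0.744 by edgeR). Pklr, Khk and Tkfc did not overlap between the groups, which 2.84% of all genes did in the higher direction. Against young livers, Elovl3 fell by 1.82, Acsl1 by 0.83, Hsd17b12 by 0.50, Abca1 by 0.93 and Akt2 by 0.43, while Abcg5 rose by 0.90 and Irs1 by 0.54.

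**Figure D5:**
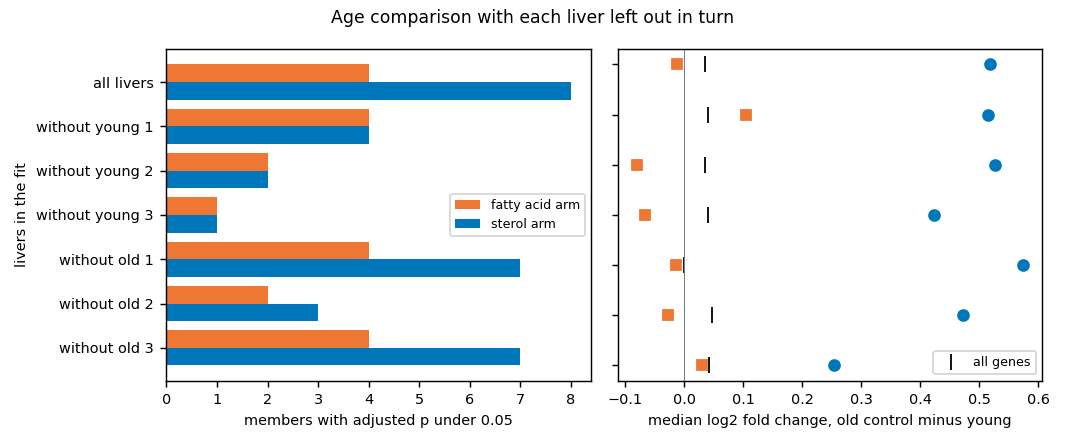
Left, number of members of each arm with an edgeR adjusted p under 0.05 with age, for all livers and with each liver left out. Right, median log2 fold change of the sterol arm (circles), the fatty acid arm (squares) and all genes (ticks); the sterol median stays right of the all-gene tick in every fit and is lowest, 0.25, without old control replicate 3.

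Many of the age calls were lost when 1 liver was left out of the fit. The 15 members became 10 without young replicate 1 (9 of the 15 and Acss2), where 11.9% of all genes passed. They became 5 without young replicate 2 and 4 without young replicate 3, where 2.8% and 11% of all genes passed. Without old control replicate 2 they became 6, beside 7.35% of all genes. They became 14 without old control replicate 1 or 3, beside 20.1% and 37.7% of all genes. With only the compared groups in the fit they became 8, beside 8.9% of all genes. That fit lost Insig1, Pnpla3, Hmgcs1, Mvk, Mvd, Msmo1 and Sc5d. Srebf1, Me1 and Fdft1 passed in all 10 alternatives, and all 15 kept their sign in them. Lpin1 was lost without young replicate 3, and Insig2 without young replicate 2 or old control replicate 2. Hmgcs1 was lost without young replicate 1 or 3, Mvk without young replicate 2 or 3, and Pmvk without either of those or old control replicate 2.

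Scd2, Lss and Insig1 were each lost without any 1 of the young livers or old control replicate 2, Pnpla3 and Sc5d without young replicate 2, young replicate 3 or old control replicate 2, and Msmo1 also without young replicate 1 or old control replicate 3. Mvd, at 0.0495, passed in 2 of the 10. Against young livers, the 5 calls of the livers labelled knockout became 1, Srebf1, without any 1 young liver or replicate 4 labelled knockout. In those fits 0.395% to 2.99% of all genes passed. The 5 calls became 2 without replicate 2 or 3 labelled knockout, Scd2 or Lpin1 beside Srebf1, where 2.85% and 2.35% of all genes passed. They became 10 when only the compared groups entered the fit, where 31% of all genes passed.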

How the data were processed

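Polyadenylated RNA of 10 livers was sequenced as paired reads, per the labels' protocols. The deposited values are raw counts per gene symbol in 1 table, not normalized by the authors. FastQC 0.11.8, Trim Galore 0.4.4, STAR 2.5.3a, HOMER and the build mm10 are named in the submitters' processing notes, without role or order. Annotation and strand use are not given in the sources used here, so overlapping and antisense genes, and paralogs such as Scd1 and Scd2, are uncertain.

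Counts were tested with edgeR 4.0.16 in R 4.3.3 (quasi-likelihood test, 1 coefficient per group over all 10 libraries, TMM factors, filterByExpr with a minimum count of 10 and total of 15) and Benjamini-Hochberg adjustment over 13909 genes, with a threshold of 0.05. Guides were compared in a fit with 4 groups. The SE is the log2 fold change divided by the square root of F. CPM use TMM library sizes, and log2 CPM a prior count of 2. Total counts of 15821198 to 21710228 put 3 counts at 0.138 to 0.19 CPM, which covers counting error only. Livers of one group differed beyond sampling noise in every pair (chi-square per degree of freedom 20.3 or more). The steps were tested on simulated data.

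The members, lists, alternatives and rules for naming genes were chosen with earlier results of these data known. Livers' full values are given for members that passed with age or against young livers, or had an unadjusted p under 0.05 between old groups or guides, and for a few chosen regulators and enzymes. Neighbouring pathway genes that passed could be named, and those with an unadjusted p under 0.05 were named after their values were seen. Alternatives were DESeq2 1.42.0, its size factors, no filter, only the compared groups, a threshold of 0.1 and each liver left out. Some neighbouring genes that passed or had such a p are not reported here, though the counts include them.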

Additional observations from a re-analysis of the deposited data

Results flagged for a closer look

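In 3 of 45 results tested over the 4 livers labelled knockout, 1 liver lay apart from the other 3. The gap to its nearest neighbour, as a share of the whole range of log2 CPM, passed Dixon's critical value for 4 samples, which chance passes in about 1 of 20 groups. For Elovl5, a fatty acid elongase, replicate 4 was lowest (0.837), at 589 CPM against 862 to 929 CPM. For Mvd replicate 1 was highest (0.896), at 59.9 CPM against 34.4 to 36.5 CPM. For Nsdhl, a sterol dehydrogenase, replicate 1 was highest (0.984), at 123 CPM against 95.6 to 95.9 CPM.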

How the results depend on the processing

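No paired analysis was possible because livers carry no number shared across groups. The number of members called with age, 15, was 8 with only the compared groups in the fit and ranged from 4 to 14 with each liver left out. The share of all genes called was 8.9% and 2.8% to 37.7% in these fits. Against young livers, the 5 calls of livers labelled knockout became 10 with only the compared groups and ranged from 1 to 5 with each liver left out. There the share of all genes was 31% and 0.395% to 11.9%. Between guides the count of 0 became 1 with DESeq2, which called 0.502% of all genes. The cause of these changes was not tested; fewer samples enter the fits that leave livers out. Livers labelled knockout against old controls gave 0 members in each alternative run, and so did each guide against old controls. Where a liver was left out of a guide, the lone liver was assumed to vary like the other groups. The other 116 counts and medians under alternatives moved by less than 1.5 times or the spread between livers, and no result changed sign with its call. Among single genes 1195 values kept their call and direction, 69 lost and 9 gained a call. Another 71 changed direction without passing in either fit. With 3 or 4 livers a group and a biological coefficient of variation of 21.8%, small changes were not detectable.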

Other observations

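Over the 10 livers, the non-member genes whose log2 CPM followed the sterol arm level most closely, among 9919 genes with a mean of at least 5 CPM, were Pomk, Fam114a1, Rab11fip1, Daglb, Ppp1r21, Mmab, Eri1 and Acsl3, with Pearson correlations from 0.939 to 0.883, given as a description. Without old control replicate 3 they lay between 0.743 and 0.945. Mmab, an enzyme of vitamin B12 metabolism, lies 190 bases from Mvk on mouse chromosome 5. It had log2 fold changes of 0.37 with age and -0.19 between livers labelled knockout and old controls, beside 1.04 and -0.63 for Mvk. For the fatty acid arm the genes were Pgpep1, Cutc, Otud1, Fzd1, Fbxo46, Gpd1l, Cbfa2t2 and Chic2, from 0.92 to 0.835.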
